A study of Bos taurus with 4 samples.

Results

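The genes of serine synthesis (PHGDH, PSAT1 and PSPH), asparagine synthesis (ASNS), serine breakdown (SDS) and the ATF4 arm of the amino acid stress response (ATF4, DDIT3, TRIB3, DDIT4 and SLC3A2) were measured in day 7 cattle embryos. They are 10 of the 15216 named genes on the array, and every probe named for them is described, 14 of 43794 probes. They were chosen by their log2 ratios between embryos of cows with high and low beta-hydroxybutyrate (BHB) on these arrays, which were already known when the list was drawn up, so those ratios are given as a description with no test. A spot counted as above background where it exceeded the median plus 2 MAD of the 153 negative control spots. A probe was kept if 1 group or both reached this on 3 or 4 arrays. This held for 16575 probes in all and for 10 of the 14 probes, which cover 9 of the 10 genes. TRIB3 had no probe that passed.

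Serine is made from a glycolytic intermediate by PHGDH, PSAT1 and PSPH, asparagine is made from aspartate by ASNS, and SDS breaks serine down to pyruvate and ammonia. When amino acids run short, uncharged tRNA activates the kinase GCN2, phosphorylated eIF2 lowers general translation, and translation of the transcription factor ATF4 goes up. ATF4 then induces serine and asparagine synthesis, amino acid transport and stress genes such as DDIT3 and TRIB3. In early embryos serine feeds the one-carbon units needed for nucleotides and methylation, and SDS is best known as a liver enzyme that feeds serine into glucose synthesis.

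The embryos were morulas and blastocysts of Holstein postpartum dairy cows (Bos taurus), recovered 7 days after the start of oestrus following superovulation and insemination with sexed semen. Cows of the high BHB group had circulating levels of BHB, a ketone body that builds up in negative energy balance, above 0.9 mmol/l, and cows of the low BHB group had levels below it. Both groups received the same ovarian stimulation. Each of 4 dual-colour arrays held amplified RNA of 1 high BHB sample (Cy5 on arrays 1 and 2, Cy3 on arrays 3 and 4) and of 1 low BHB sample in the other dye. Source names number the samples 1 to 4 in each group and descriptions call them 4 biological replicates, which is followed here. The titles, however, call arrays 3 and 4 dye swaps numbered 1 and 2, and if these repeated the RNA of arrays 1 and 2 there would be 2 samples a group. The labels do not say whether a sample was 1 cow or a pool, so that the spread given here is that between these samples and may be partly technical. The mix of morulas and blastocysts in a sample is not given, and fewer cells of a type and less RNA per cell cannot be told apart.

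Median spot intensities were 213 to 421 units in Cy5 and 289 to 611 units in Cy3, and Pearson's r between the ratios of any pair of arrays, across tested probes that are not independent, was 0.10 to 0.38. Ratios spread most on array 1, with an SD of 0.83, against 0.44 on array 2, 0.52 on array 3 and 0.61 on array 4. Markers of the labelled tissue were present. All 3 inner cell mass markers (POU5F1, NANOG and SOX2) and 4 of 5 trophectoderm markers (CDX2, GATA3, KRT8 and KRT18) were above background in both groups on at least 3 arrays. So were 0 of 8 cumulus and granulosa markers and 0 of 5 oviduct and endometrium markers in either group. PTPRC was the 1 of 5 leukocyte markers above background, HBA and GATA1 were 2 of 4 erythroid markers, and MOS and ZP3 were 2 of 8 oocyte markers, in at least 1 group.

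Intensities below were normalised within and between arrays. Each log2 ratio sets the high BHB channel over the low BHB channel of 1 array, and a mean ± SD is over the 4 arrays (n = 4). The 3 serine synthesis genes, ASNS and SDS had ratios above 0 on all 4 arrays, with means from 0.33 for PSPH to 1.06 for SDS. No gene of the ATF4 arm did, and ATF4 itself was at -0.01 ± 0.23. The 5 genes with 1 direction were 5 of the 9 tested, against 9.54% of all tested probes with ratios above 0 on all 4 arrays. Nothing is read from that comparison, since the ratios entered the choice of genes. The median ratio of the 9 genes was 0.48, beside -0.03 over all tested probes. In limma 2 probes, 0.0121% of those tested, passed an adjusted p of 0.05 for high over low BHB, and 0 of the 10 probes of these genes were among them.

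**Figure D1:**
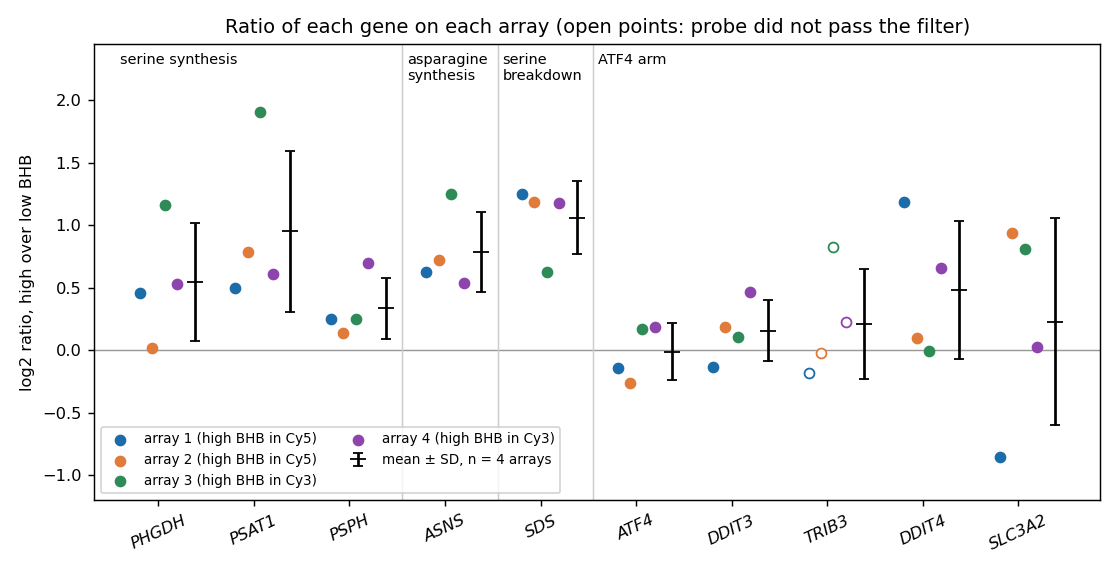
Log2 ratio of high over low BHB (vertical axis) of each of the 10 genes at its brightest tested probe, as 1 point per array, with the mean and SD over 4 arrays. PHGDH, PSAT1, PSPH, ASNS and SDS lie above 0 on all arrays, and the ATF4 arm straddles 0. TRIB3 (open points) did not pass the filter.

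PHGDH, which oxidises 3-phosphoglycerate in the first committed step of serine synthesis, was close to background. Its intensity was 257, 197, 453 and 195 units in high BHB embryos on arrays 1 to 4, against 187, 194, 202 and 135 units in low BHB embryos. The raw spot passed the detection threshold for high BHB on all 4 arrays and for low BHB on none. For high BHB it passed narrowly on arrays 2 and 4, at 305 against a threshold of 298.7 and 323 against 310.5. The high BHB spot was 510 against 459 on array 1 and 1010 against 681 on array 3. For low BHB it came close, at 336 against 338.5 on array 1 and 399 against 404 on array 2. It was 347 against 385 on array 3 and 184 against 229 on array 4. The detection calls of the 2 groups thus differed by little on arrays 1 and 2. The low BHB value is therefore only a bound. By normalised means PHGDH was 1.46-fold higher in the high BHB group at that bound, which is the ratio as measured. The mean log2 ratio was 0.54 ± 0.47, so that 1.46-fold is no firm lower limit. As the probe passed the filter through the high BHB channel alone, it was kept on the side where it was brighter. The log2 ratios were 0.46, 0.02, 1.17 and 0.53, so that array 2 showed almost no difference and array 3 the most. Without array 3 the mean was 0.34.

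PSAT1, the aminotransferase of the second step, was above background in both groups on all arrays. Its intensity was 735, 692, 925 and 818 units in the high BHB channel, against 520, 400, 248 and 537 units in the low BHB channel. The lowest normalised high BHB value exceeded the highest normalised low BHB value, so the groups did not overlap on that scale. Raw spots overlapped, at 658, 671, 1596 and 1220 units for high BHB and 728, 656, 409 and 701 units for low BHB. The share of all tested probes without overlap was not counted. Nothing is read from the lack of overlap, since the ratios entered the choice of genes. The log2 ratio was 0.95 ± 0.65 or 1.93-fold, with 0.50, 0.79, 1.90 and 0.61 on the 4 arrays. Array 3 held both the highest high BHB value and the lowest low BHB value. Without array 3 the mean was 0.63.

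PSPH, the phosphatase that releases serine, had the smallest difference of the pathway. At its brighter probe the intensity was 410, 273, 367 and 330 units in the high BHB channel, against 345, 248, 309 and 204 units in the low BHB channel. The groups overlapped, and each array had the high BHB sample brighter. The log2 ratio was 0.33 ± 0.25 or 1.26-fold, with 0.25, 0.14, 0.25 and 0.70 on the 4 arrays, and 0.21 without array 4. The other PSPH probe was above background in neither group on any array (log2 ratio 0.01 ± 0.49).

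ASNS, the glutamine-dependent synthetase that makes asparagine, had no overlap between groups in normalised intensity at its detected probe. Its intensity was 3616, 4328, 4950 and 2762 units in the high BHB channel, against 2340, 2624, 2081 and 1908 units in the low BHB channel. Raw spots of that probe overlapped, at 1763, 3765, 6549 and 4263 units for high BHB and 2912, 3491, 2159 and 2453 units for low BHB. As for PSAT1, the share of all tested probes without overlap was not counted, and nothing is read from it. The log2 ratio was 0.78 ± 0.32 or 1.72-fold, with 0.63, 0.72, 1.25 and 0.53 on the 4 arrays. As for PSAT1 and PHGDH, array 3 gave the highest ratio. The other ASNS probe was above background in neither group on any array and read 0.19 ± 0.18. The ASNS ratio depended on the normalization, falling to 0.30 when arrays were centred on their median in place of loess.

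SDS, serine dehydratase, had a mean log2 ratio of 1.06 ± 0.29 or 2.08-fold, with low BHB measured above background on 2 of 4 arrays. Its intensity was 543, 389, 270 and 992 units in the high BHB channel, against 229, 171, 175 and 438 units in the low BHB channel. Levels differed between arrays by more than between groups, so that the groups overlapped while each array had the high BHB sample brighter. The log2 ratios were 1.25, 1.18, 0.62 and 1.18, with array 3 the lowest. For high BHB, SDS was above background on all 4 arrays, and for low BHB on arrays 1 and 4. On arrays 2 and 3 its low BHB value was thus not well above background, and the ratios there set a measured value over one that is only a bound. Like PHGDH, SDS passed the filter through the high BHB channel alone.

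**Figure D2:**
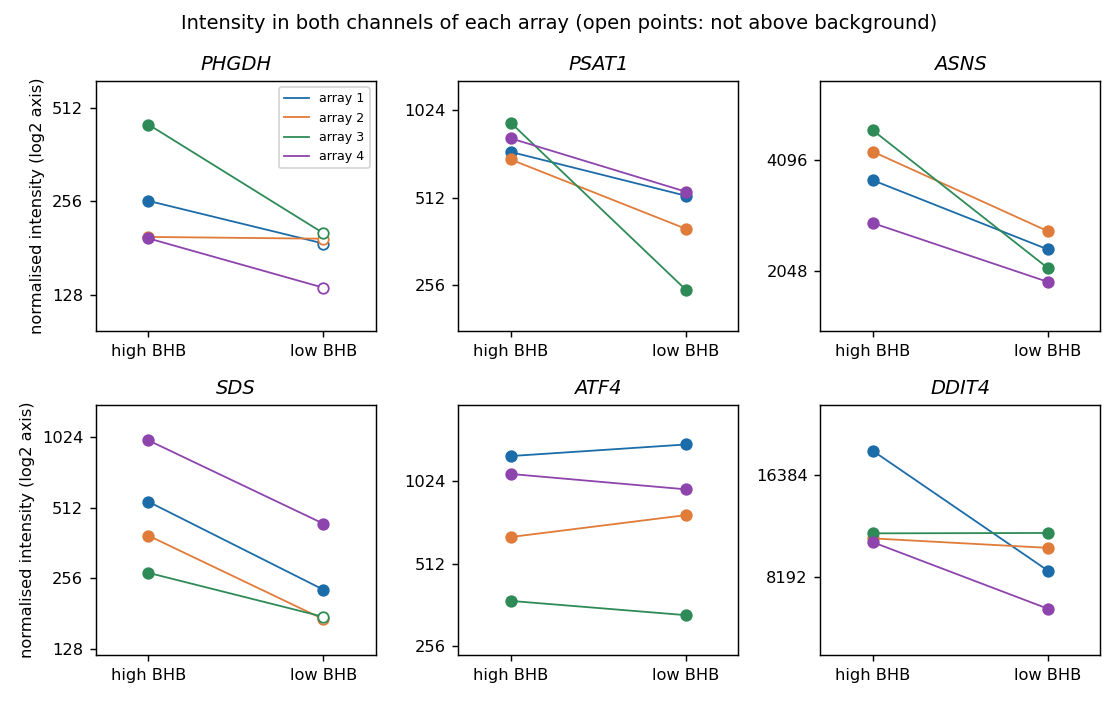
Normalised intensity (log2 axis) in the high BHB channel and the low BHB channel of each array for 6 genes, with lines joining the channels of an array and open points for channels not above background. Normalised values of PSAT1 and ASNS do not overlap between groups, though their raw spots do. Nothing is read from this, since the ratios entered the choice of genes. ATF4 differs between arrays far more than between channels of an array.

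ATF4, the transcription factor of the response, had intensities of 1265, 641, 375 and 1089 units in the high BHB channel, against 1395, 770, 333 and 957 units in the low BHB channel. Its level differed far more between arrays than between the channels of an array, and the groups overlapped. The log2 ratios were -0.14, -0.27, 0.17 and 0.19, below 0 on arrays 1 and 2 and above 0 on arrays 3 and 4, which carried opposite dye orientations. ATF4 is known to be controlled mainly at translation, which these arrays do not measure.

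DDIT3 (CHOP), a transcription factor that ATF4 induces under lasting stress, had 3 probes, of which 2 were tested. The brightest had intensities of 540, 401, 324 and 416 units in the high BHB channel, against 592, 353, 302 and 302 units in the low BHB channel. Its log2 ratio was 0.15 ± 0.24, above 0 on 3 of 4 arrays, with means of 0.25 without array 1 and 0.0521 without array 4. The other tested probe read -0.02 ± 0.29, and the probe that did not pass the filter -0.04 ± 0.25, so that all 3 probes lay within 1 SD of 0.

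TRIB3, a pseudokinase that ATF4 and DDIT3 induce, was above background for high BHB on array 4 alone and for low BHB on no array. Its intensity was 164, 150, 223 and 204 units in the high BHB channel, against 187, 152, 126 and 175 units in the low BHB channel. The log2 ratios were -0.18, -0.03, 0.82 and 0.22. At this signal no difference was detectable.

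DDIT4 (REDD1), a stress-induced inhibitor of mTORC1, had intensities of 19386, 10640, 11016 and 10364 units in the high BHB channel, against 8529, 9972, 11044 and 6570 units in the low BHB channel. The log2 ratio was 0.48 ± 0.55, but 1.18 and 0.66 on arrays 1 and 4 stood beside 0.09 on array 2 and -0.0037 on array 3. Without array 1 the mean was 0.25, and with median centring it was 0.18.

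SLC3A2 is the heavy chain (CD98) that carries light-chain amino acid exchangers to the cell surface. Its intensity was 303, 461, 607 and 286 units in the high BHB channel, against 548, 241, 347 and 281 units in the low BHB channel. The log2 ratio was 0.23 ± 0.83, at -0.85, 0.93, 0.81 and 0.02 on the 4 arrays. The arrays disagreed in direction, and leaving out 1 array gave means from -0.0073 (without array 2) to 0.59 (without array 1).

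Set side by side within arrays, the mean log2 ratio of the serine synthesis genes was 0.40, 0.32, 1.10 and 0.61, and that of ASNS 0.63, 0.72, 1.25 and 0.53. SDS had 1.25, 1.18, 0.62 and 1.18, and the 4 tested genes of the ATF4 arm averaged 0.01, 0.24, 0.27 and 0.33. The ATF4 arm was the lowest set on every array. SDS exceeded the serine synthesis mean by 0.84, 0.87 and 0.57 on arrays 1, 2 and 4 and lay 0.48 below it on array 3 (difference -0.48). Array 3 was thus the array with the highest ratios of PHGDH, PSAT1 and ASNS and the lowest ratio of SDS. Without array 3, SDS exceeded the serine synthesis mean by 0.76, against 0.45 over all arrays. Serine synthesis exceeded the ATF4 arm by 0.40 ± 0.32 and ASNS exceeded it by 0.57 ± 0.32, each on all 4 arrays. The difference for serine synthesis was 0.25 without array 3 and 0.16 without background correction, and that for ASNS 0.37 with median centring. SDS exceeded the arm by 0.85 ± 0.37, a difference that rests on low BHB readings of SDS not above background on arrays 2 and 3, as the serine synthesis mean does on those of PHGDH on all arrays. The mean of the ATF4 arm was 0.21 ± 0.14 and became -0.07 with median centring, which moved the median of all tested probes to -0.17, from -0.03 with loess.

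**Figure D3:**
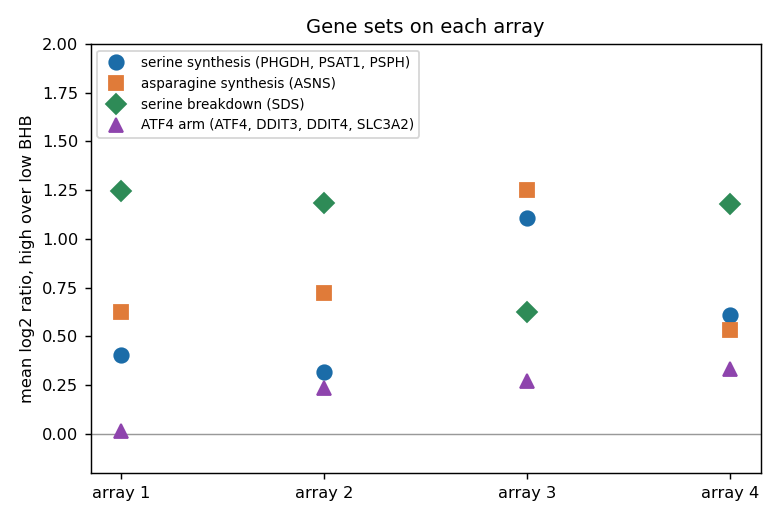
Mean log2 ratio of high over low BHB (vertical axis) of the serine synthesis genes, ASNS, SDS and the ATF4 arm on each array (horizontal axis). SDS is the highest set on arrays 1, 2 and 4 and falls between the biosynthesis genes and the ATF4 arm on array 3.

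Some markers differed between the channels of the same arrays. The 4 tested hypoblast markers (GATA4, HNF4A, COL4A1 and FN1) of 6 listed had median log2 ratios of 0.43, 1.29, 1.17 and 0.41 on arrays 1 to 4. The log2 ratio of the summed intensity was -0.87, 1.69, 1.22 and -0.17, so that sum and median differed in sign on arrays 1 and 4. By gene, FN1 had -0.99, 1.75, 1.18 and -0.22, and COL4A1 1.22, 1.04, 1.17 and 1.12. GATA4 had 0.77, 0.57, 0.04 and 0.85, and HNF4A 0.09, 1.55, 2.65 and -0.03. The sum thus lay near FN1 on each array. The summed intensity of the hypoblast list was 42800 to 71912 units in the high BHB channel and 21141 to 78272 units in the low BHB channel. SOX17, also a hypoblast marker, was above background in no channel. The summed intensity of the inner cell mass markers had log2 ratios of -0.94, 0.17, -0.06 and -0.66, and ranged from 3780 to 8923 units in the high BHB channel and from 3942 to 10773 units in the low BHB channel. The trophectoderm sum had log2 ratios of -1.32, 0.38, 0.23 and -0.44, over 41361 to 90950 units in the high BHB channel and 70069 to 103119 units in the low BHB channel. PTPRC had ratios of 0.59, -0.07, 0.34 and 0.84. The summed intensity of the leukocyte list, where PTPRC alone was tested, was above that of the inner cell mass markers. It was 24096 to 37496 units in the high BHB channel and 17302 to 29831 units in the low BHB channel. Intensities of different probes do not give relative amounts of RNA, so these sums do not rank cell types. The part of these markers in the ratios of the 10 genes was not tested.

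The dye contrast was not used to choose the genes and could be tested. In limma with a dye term, 0 of 16575 probes passed an adjusted p of 0.05, and 3.68% had an unadjusted p under 0.05. Of the 10 tested probes of these genes 0 passed at either threshold. The dye terms nearest to a difference were those of PHGDH (-0.30, SE 0.23, adjusted p = 0.992) and PSAT1 (-0.31, SE 0.26, adjusted p = 0.992), as log2 of Cy5 over Cy3. By orientation, PSAT1 averaged 0.64 with high BHB in Cy5 and 1.26 with high BHB in Cy3, and PHGDH 0.24 and 0.85. ASNS averaged 0.67 with high BHB in Cy5 and 0.89 with high BHB in Cy3, and SDS 1.22 and 0.90. All 4 genes were above 0 in both orientations, which follows from their ratios above 0 on all 4 arrays and adds nothing to them.

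The surrounding pathways were covered by 7 lists of 125 other genes, of which 82 were tested at their brightest probe. In limma 0 of the 82 passed an adjusted p of 0.05 over all probes tested. At an unadjusted p under 0.05 in limma, 3 of the 82 had ratios above 0 and 3 below. Among 7879 named genes at their brightest tested probe, 451 were above 0 and 914 below at that level. Of all tested probes 14.9% reached it in either direction. The median log2 ratio of the 82 was 0.04, beside -0.04 over 7879 named genes tested. Of those named genes 3595 had ratios above 0 and 4284 below, which is the share to set beside each list count that follows.

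Of 18 tested genes of serine, glycine and one-carbon metabolism, 9 had ratios above 0 and 9 below, with a list median of -0.03, beside 3595 above 0 among 7879 named genes. Without array 1 the list median was 0.0155, and without array 2 it was -0.17. GLDC, the decarboxylase of the glycine cleavage system, had -1.03, -0.83, -0.10 and -0.59 on arrays 1 to 4 (mean -0.64 ± 0.40, adjusted p = 0.285 in limma). SPTLC1, a subunit of the enzyme that joins serine to palmitoyl-CoA, had -0.28 ± 0.21 (adjusted p = 0.505 in limma). Of 13 tested genes of asparagine, glutamate and proline metabolism, 7 were above 0 and 6 below. GLUL, which makes glutamine, had 0.44, 0.37, 0.71 and 0.72 (mean 0.56 ± 0.18, adjusted p = 0.286 in limma), and OAT, an aminotransferase of ornithine, -0.43 ± 0.51 (adjusted p = 0.398 in limma). OAT rested largely on array 1, at -1.19.

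Of 8 tested ATF4 partners and targets, 6 were above 0 and 2 below (median 0.18). The median was -0.0131 without array 3 and 0.0319 with median centring. PPP1R15A, the stress-induced phosphatase subunit that reverses eIF2 phosphorylation, had 0.33 ± 0.13 (adjusted p = 0.42 in limma). For high BHB it was above background on 3 arrays, and for low BHB on 1. XPOT, which exports tRNA from the nucleus, had -0.39 ± 0.22 (adjusted p = 0.370 in limma). It was above background for high BHB on 2 arrays and for low BHB on all 4, so that each of these genes passed the filter through 1 group alone. Of 12 tested genes of eIF2, its kinases and its regulators, 10 were below 0 and 2 above (median -0.25). Over all named genes 4284 of 7879 were below 0. EIF2S1, the eIF2 subunit that the stress kinases phosphorylate, had -0.57, -0.96, -0.71 and -1.19 (mean -0.86 ± 0.27 or 0.552-fold, adjusted p = 0.204 in limma). EIF2B2, a subunit of the exchange factor of eIF2, had -0.46 ± 0.29 (adjusted p = 0.336 in limma), while its other tested probes read -0.38 and 0.07.

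Of 12 tested amino acid transporters, 9 were above 0 and 3 below (median 0.22, and 0.14 without array 1). Over all named genes 3595 of 7879 were above 0. SLC1A4, a carrier of serine, alanine and cysteine, had 0.0041, 1.31, 1.07 and 2.44 (mean 1.20 ± 1.00, adjusted p = 0.229 in limma), with 0.81 at its other tested probe. SLC1A5, a glutamine carrier, had 1.36, 0.29, 0.49 and 0.83 (mean 0.74 ± 0.47, adjusted p = 0.258 in limma). Their ratios above 0 on all 4 arrays follow from the naming rule, which took only genes of 1 direction. Neither passed. The 4 tested light chains that pair with SLC3A2 lie outside the naming rule and were chosen after their values were seen. SLC7A5 had -0.54, 0.80, 1.74 and 0.31, below 0 on array 1 and highest on arrays 2 and 3, as SLC3A2 was. SLC7A6 had -0.09, 0.14, -0.81 and 0.30, SLC7A7 1.51, 0.99, 0.19 and -0.16, and SLC7A8 0.77, -0.25, -0.19 and -0.92. None of the 4 light chains had the full order of SLC3A2 over the arrays. SLC3A2 was highest on array 2, and SLC7A5 on array 3.

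Of 10 tested genes of mTORC1 and its regulators, 7 were above 0 and 3 below (median 0.08, and -0.0471 without array 1). RHEB, the GTPase that activates mTORC1, had -1.56, -0.17, -0.29 and -0.28 (mean -0.58 ± 0.66, adjusted p = 0.341 in limma), and RRAGC, which recruits mTORC1 to the lysosome, -0.23 ± 0.18 (adjusted p = 0.591 in limma). Of 9 tested genes of the unfolded protein response of the endoplasmic reticulum, 6 were above 0 and 3 below (median 0.08). That median was 0.22 without array 1, -0.0952 without array 4 and -0.0062 with normexp fitted on all spots. CALR, a chaperone of that compartment, had 0.34 ± 0.26 (adjusted p = 0.426 in limma).

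**Figure D4:**
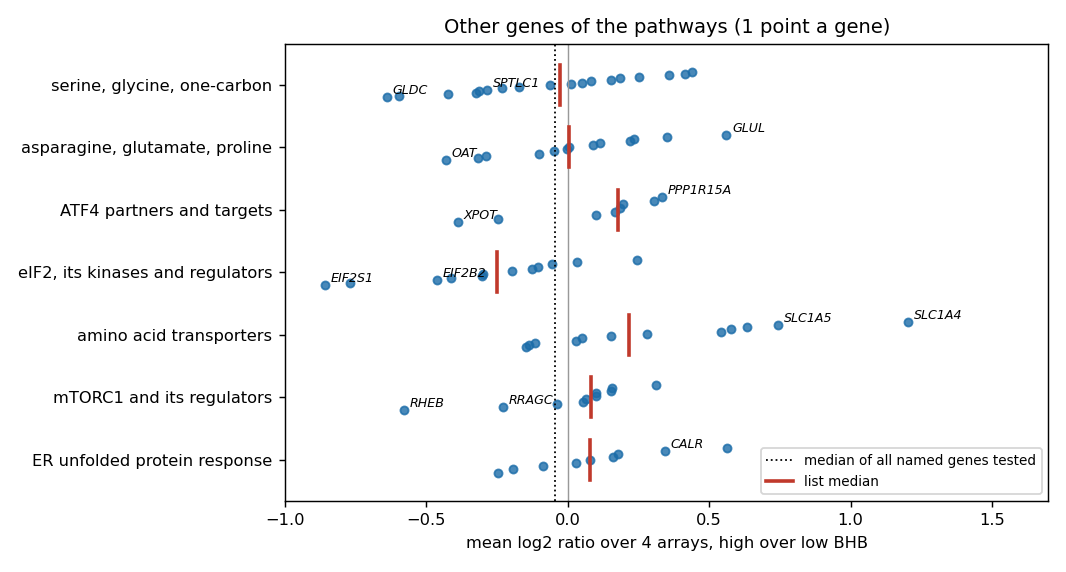
Mean log2 ratio over 4 arrays of high over low BHB (horizontal axis) for each tested gene of 7 pathway lists, with red bars at list medians and a dotted line at the median of all named genes tested. The list of eIF2 and its regulators has the lowest median (-0.25) and the amino acid transporters the highest (0.22).

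Among 7870 other named genes, those with ratios most like PSAT1 over the 4 arrays were VEGFB, a growth factor (root mean square distance 0.21), DENND3, a RAB exchange factor (0.27), and ABCB8, a mitochondrial transporter (0.31). For ASNS they were ABCB8 (0.10), the tankyrase-binding protein TNKS1BP1 (0.17) and the membrane protein TMEM53 (0.18). For SDS they were the glycerophosphodiesterase GDPD5 (0.14), the RNA-binding protein RAVER1 (0.18) and the coregulator ZMIZ2 (0.22). ABCB8 stood near both PSAT1 and ASNS, with ratios of 0.73, 0.70, 1.36 and 0.41, and shared with them the highest value on array 3. Likeness over 4 arrays is a description of these values alone.

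The authors' deposited log2 ratios gave means of 0.94 for PSAT1, 0.72 for ASNS, 0.52 for PHGDH, 0.31 for PSPH and 1.00 for SDS. For the ATF4 arm they gave -0.03 for ATF4, 0.14 for DDIT3, 0.38 for DDIT4 and 0.14 for SLC3A2. Relative to the median of all tested probes, which median centring moved by -0.14, SDS was at 1.10 and PSAT1 at 0.81 with that centring, and at 1.09 and 0.98 with loess. ASNS was at 0.47 with median centring and at 0.81 with loess, and ATF4 at -0.24 and 0.02.

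**Figure D5:**
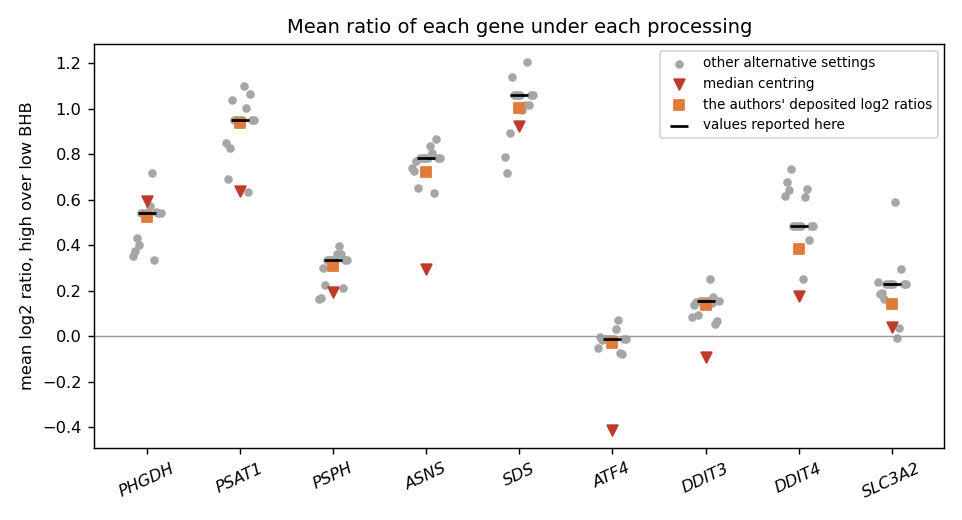
Mean log2 ratio of high over low BHB (vertical axis) of the 9 tested genes as reported, with the authors' deposited ratios, with median centring and under the other alternative settings. PSAT1, ASNS, SDS, PHGDH, PSPH and DDIT4 stay above 0 under every setting shown, and ATF4, DDIT3 and SLC3A2 take both signs.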

How the data were processed

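The authors deposited scanner intensity values per spot and local background in both channels, with no normalization per the file headers, and log2 ratios per array, already turned to high over low BHB. Of the steps behind the deposited ratios, only limma is named, per the submitters' processing notes. RNA was amplified and labelled with the Universal Linkage System, per the labels' protocols.

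Ratios were computed from median spot and background intensities in limma 3.58.1 (R 4.3.3). The 95 to 114 spots per array that the scanner software had set aside were removed before normexp (offset 50). Loess within arrays followed, at a span of 0.3 and with control spots at weight 0. Intensities were set on 1 scale by quantile normalization of average intensity. Ratios were fitted with lmFit and eBayes with Benjamini-Hochberg adjustment over 16575 probes. Symbols came from the platform's annotation (21790 probes with 1 symbol, 22004 with none), updated through the RefSeq table of ARS-UCD2.0 (20025 current, 1524 synonyms, 241 unmatched). The number of arrays limits the precision.

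All genes and lists, and the choice of correction and detection threshold, were made with earlier results of these data known. The text names the 10 genes, from each list those passing or otherwise up to 2 with the largest mean ratio of 1 direction, and the 3 genes nearest to PSAT1, ASNS and SDS. Cell type markers were described as lists.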

Additional observations from a re-analysis of the deposited data

Results flagged for a closer look

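Among 24 values over 4 arrays that were checked for 1 array far from the other 3, 3 stood out by Dixon's criterion, and chance flags about 1 in 20. SDS had 0.62 on array 3, below its other arrays. PPP1R15A had 0.53 on array 2, above its other arrays. RHEB had -1.56 on array 1, below its other arrays. The SDS spot was neither set aside by the scanner software nor saturated.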

How the results depend on the processing

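Of 17 alternative settings, the dye term, averaging by title number and dropping the replicate block leave every mean ratio as it is by construction. PHGDH, PSAT1, PSPH, ASNS, SDS and DDIT4 kept ratios above 0 in every setting that gave them a value. Many of these settings could not change the sign. Other filters left the ratio of each of these genes as it was. Leaving out 1 array cannot change the sign of a gene above 0 on all 4 arrays, which holds for all of them but DDIT4. PHGDH, SDS and SLC3A2 have none where both groups had to be above background on all arrays. Median centring gave 0.30 for ASNS, -0.41 for ATF4, -0.0913 for DDIT3 and -0.071 for the ATF4 arm. That setting moved the median of all tested probes by -0.14. It also gave list medians of -0.57 for eIF2, -0.27 for the unfolded protein response, -0.14 for mTORC1, -0.19 for serine and one-carbon metabolism and -0.12 for asparagine, glutamate and proline. The last median, 0.0029 as reported, was 0.0469 with normexp fitted on all spots, -0.0141 with plain background subtraction, 0.0459 with both groups above background, 0.0807 with the deposited ratios and -0.0352 to 0.0801 with 1 array left out (lowest without array 3). PSPH had 0.16 with normexp fitted on all spots and 0.17 without background correction. Without background correction SDS had 0.72 and exceeded the ATF4 arm by 0.47. Without the filter the transporter median was 0.0497. With 1 array left out, PSAT1 ranged from 0.63 to 1.10, ASNS from 0.63 to 0.87, SDS from 1.00 to 1.20 and PHGDH from 0.34 (without array 3) to 0.72.

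The 2 probes past an adjusted p of 0.05 in limma became 0 with normexp on all spots, mean spot intensities or median centring, 1 with no background correction, plain subtraction, no filter or a dye term, 3 with both groups above background, and 0 to 2 with 1 array left out (0 without array 2 or array 4). Those past an unadjusted 0.05, 2477 as reported, were 4044 with no filter and 1350 to 2477 with 1 array left out (lowest without array 4). The array pairs 1 sample of each group; without that replicate block the counts were 0 and 821. Averaging arrays whose titles share a number gave 1182 and 3829, from 2 values. The causes were not tested. Signal over background limits PHGDH, TRIB3 and the low BHB value of SDS.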
